A study of Mus musculus with 27 samples.

Results

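The 10 genes Cd68, Lyz2, Ctss, Ctsb, Ctsd, Ctsz, Ctsc, Ctsh, Lgmn and Lamp1 encode proteins of the lysosome and of phagocytic cells. They were chosen by symbol from the 55487 rows of the count matrix, and all 10 were among the 20271 genes that passed the filter on low counts. The RNA-seq libraries came from the hippocampus (13 libraries) and cortex (14 libraries), on the side opposite the infusion, of male wild-type C57Bl/6J mice, whose age was 8 weeks at assignment to treatment. An osmotic pump had delivered the human autoantibody (AAB) pool α-IgLON5#1, a human control IgG (pCtrl) or PBS into the right lateral ventricle at 0.25 μl/h for 14 days. The α-IgLON5#1 group had 4 hippocampal and 4 cortical libraries, pCtrl had 4 and 5, and PBS had 5 and 5. The methods describe pCtrl as IgG of a healthy subject, whereas the labels call it a non-reactive monoclonal human IgG. α-IgLON5#1 is a polyclonal pool of antibodies affinity-purified from the plasma of 1 patient, so the group represents that pool and not the disease.

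The lysosome degrades material taken up by endocytosis and phagocytosis. Its cysteine proteases (cathepsins B, C, H, S and Z, and the asparaginyl endopeptidase legumain), the aspartic protease cathepsin D and membrane proteins such as LAMP1 occur in most cell types, but in the brain some of them are far more abundant in microglia and other macrophages. CD68 is a LAMP-family glycoprotein of macrophage lysosomes and lysozyme M (Lyz2) is a secreted bacteriolytic enzyme of myeloid cells, and both are used as markers of phagocytic cells.

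Upstream sequences of members are given as a description, and whether they relate to the size of any change was not tested. From RefSeq (GRCm38.p6), 250 bases upstream of the start were read for 8 of the 10 members (not Ctsb and Ctsh). The letters searched were CACGTG (the core of the site of MiT/TFE factors, which drive lysosomal genes), its longer form TCACGTGA, which contains it, and GAGGAA (the core of the site of PU.1, a myeloid factor), each on both strands. Of 32851 promoters of that length, 6.02% held CACGTG, 0.785% held TCACGTGA and 23.3% held GAGGAA. Some of the stretches that held a match are shown in the direction of transcription with the matched letters in capitals.
Lamp1, chr8:13159081-13159160, plus strand: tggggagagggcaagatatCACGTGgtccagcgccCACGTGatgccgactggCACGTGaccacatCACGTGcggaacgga
Ctsd, chr7:142387908-142387937, minus strand: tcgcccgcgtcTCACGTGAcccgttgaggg
Ctss, chr3:95526602-95526647, plus strand: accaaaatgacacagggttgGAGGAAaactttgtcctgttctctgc
Ctsc, chr7:88277880-88277950, plus strand: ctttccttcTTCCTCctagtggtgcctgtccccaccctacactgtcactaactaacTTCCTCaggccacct
Cd68, chr11:69666370-69666415, minus strand: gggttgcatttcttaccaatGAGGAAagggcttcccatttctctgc
Lamp1 held CACGTG 4 times, beginning 61, 45, 28 and 15 bases before the start. Ctsd held it at 245 and 98 bases, the latter inside the longer form, in a stretch that the GENCODE annotation places in an exon of a longer Ctsd transcript. Ctss held GAGGAA at 164 bases, Ctsc held it on the opposite strand (TTCCTC) at 196 and 149 bases, and Cd68 held it at 225 bases. A 2nd RefSeq start of Lgmn had CACGTG at 49 bases, and the windows of Lyz2 and Ctsz held none of these letters. These matches are letters in a window, and no factor binding was measured.

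Libraries held 19385642 to 58550621 counts. In the hippocampus the 4 α-IgLON5#1 libraries (19428512 to 32776892 counts) were shallower than the 4 pCtrl libraries (39479753 to 52212204). The labels give neurons as the cell type, but the tissue pieces carried markers of several cell types. The summed level was 6403 to 9173 CPM (counts scaled to the library total with edgeR's TMM factors) for 8 neuronal markers, 4066 to 6343 CPM for 6 astrocyte markers, 1691 to 4580 CPM for 6 oligodendrocyte markers and 257 to 565 CPM for 8 markers of homeostatic microglia. In such bulk tissue, more cells of a type and more RNA per cell cannot be told apart. On a score of genes that separate PBS cortex from PBS hippocampus (difference of mean log2 CPM, centred within tissue), the hippocampal libraries of pCtrl mice 37 (2.13) and 10 (1.22) stood toward cortex and that of α-IgLON5#1 mouse 9 (-1.17) away from it. The number that opens each label was taken as the mouse, and mice are named by it; all α-IgLON5#1 mice have numbers from 8 to 17.

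In PBS mice the members were expressed at very different levels. Per kilobase of exon in the hippocampus, Lamp1 (78.4 ± 3.45 CPM per kb, SD, n = 5) and Ctsb (70.0 ± 1.14) were highest. Ctss (46.0 ± 7.27), Ctsd (45.4 ± 3.91) and Lgmn (37.9 ± 0.428) followed, and Ctss and Ctsd differed by less than their spread. Ctsz stood at 17.0 ± 1.2 CPM per kb, Lyz2 at 8.46 ± 4.40 and Cd68 at 6.22 ± 0.736, with the last 2 again closer than their spread. Ctsh (2.29 ± 0.491) and Ctsc (1.89 ± 0.156) were lowest and overlapped. The cortex had the same order from Lamp1 (85.9 ± 2.95 CPM per kb) and Ctsb (78.5 ± 5.17) down to Ctsh (2.32 ± 0.235) and Ctsc (1.53 ± 0.203), except that Ctsd (50.3 ± 3.54) stood above Lgmn (44.4 ± 2.18) and Ctss (44.0 ± 3.64).

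Between tissues of PBS mice, 3 members were lower in the hippocampus. They were Ctsb (log2 fold change -0.17, SE 0.0477, adjusted p = 0.00974), Lgmn (-0.23, SE 0.0778, adjusted p = 0.0297) and Lamp1 (-0.13, SE 0.0475, adjusted p = 0.0400). Adjusted p is the value of edgeR's quasi-likelihood test, Benjamini-Hochberg adjusted over all tested genes, with calls made under 0.05. Of all tested genes 14.1% were lower in the hippocampus by this test. With the mouse as a block, 4 members were called, namely Ctsb, Ctsz and Lgmn (lower) and Ctsc (higher), against 29.2% of all genes in either direction, while Lamp1 had an adjusted p of 0.0647. Leaving out 1 PBS library gave 1 to 3 members, with 1 left without the cortical library of mouse 14, 32 or 74 or the hippocampal library of mouse 38 or 74.

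**Figure D1:**
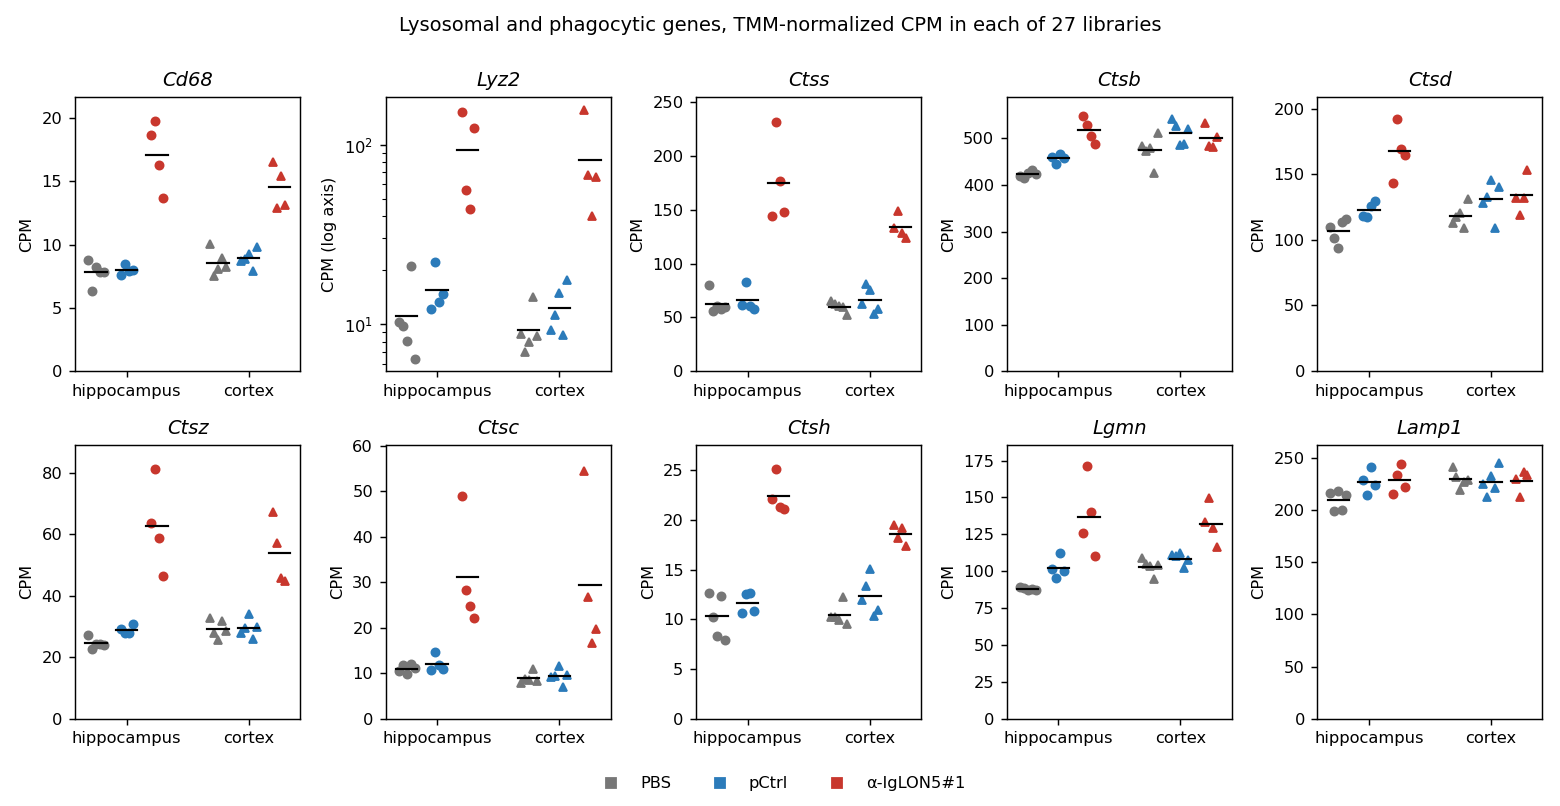
Each point is 1 library and each bar a group mean, with hippocampus (circles) and cortex (triangles) on the horizontal axis and TMM-normalized CPM on the vertical axis, which is logarithmic for Lyz2 and starts at 0 for the others. Lyz2, Ctss, Ctsc, Ctsz, Cd68 and Ctsh lie higher in every α-IgLON5#1 library than in every control library of the same tissue, whereas Lamp1 overlaps between groups.

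To ask whether AAB infusion altered these transcripts beyond human IgG as such, α-IgLON5#1 was compared with pCtrl. In the hippocampus 9 of the 10 members were higher with α-IgLON5#1, against 4.23% of all tested genes, and the median log2 fold change of the members was 1.02, against 0.0012 over all genes. The increase was graded, from 6.00-fold for Lyz2 to 1.13-fold for Ctsb. Lamp1, the member with the highest level per kilobase in PBS mice, did not pass the test. With the added requirement of a fold change above 2, 5 members remained (Lyz2, Ctss, Ctsc, Ctsz and Cd68), against 2.21% of all genes.

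Lyz2 had the largest increase. It measured 152, 55.8, 43.7 and 123 CPM in the hippocampus of α-IgLON5#1 mice 8, 9, 16 and 17, against 12.2, 22.1, 13.3 and 14.8 CPM in pCtrl mice 10, 15, 37 and 75. PBS mice 14, 32, 33, 38 and 74 had 10.2, 9.78, 8.09, 21.1 and 6.43 CPM. The lowest α-IgLON5#1 library was above the highest control library, and the α-IgLON5#1 libraries themselves spread 3.49-fold, with mice 8 and 17 high and mice 9 and 16 low. The log2 fold change over pCtrl was 2.58 (SE 0.411, adjusted p = 0.000185). Of the 75-base windows of Lyz2 transcripts, 5.96% also occur in the neighbouring lysozyme gene Lyz1, which measured 0.245 to 1.03 CPM in these 4 libraries.

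Ctss encodes cathepsin S, which is stable at neutral pH and trims the invariant chain of MHC class II. Its hippocampal level was 144, 231, 176 and 148 CPM in α-IgLON5#1 mice 8, 9, 16 and 17 and 61.4, 83.0, 60.5 and 57.9 CPM in the pCtrl mice, with 55.6 to 79.8 CPM in PBS. Mouse 9 was highest here and mouse 8 lowest, another order than for Lyz2. The log2 fold change over pCtrl was 1.41 (SE 0.146, 95% CI 1.11 to 1.71, adjusted p = 8.4e-07). Ctsd and Lgmn, which had about the same level per kilobase in PBS mice, changed less, with log2 fold changes of 0.45 (95% CI 0.263 to 0.634) and 0.42 (95% CI 0.241 to 0.598), although the difference between genes was not tested.

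Ctsc encodes cathepsin C, the dipeptidyl peptidase that activates granule serine proteases. It rose 2.57-fold in the hippocampus, to 48.8, 28.3, 24.8 and 22.1 CPM in mice 8, 9, 16 and 17 from 10.6, 14.7, 11.7 and 11.0 CPM in pCtrl (adjusted p = 0.00163). As for Lyz2, mouse 8 was the highest library. Ctsz, the carboxypeptidase cathepsin Z, rose 2.16-fold, with 63.7, 81.3, 58.9 and 46.6 CPM against 29.3, 27.8, 27.9 and 30.7 CPM (adjusted p = 2.7e-06). Ctsh, the aminopeptidase cathepsin H, rose 1.92-fold, with 22.1, 25.2, 21.3 and 21.1 CPM against 10.7, 12.5, 12.6 and 10.9 CPM (adjusted p = 2.4e-05). For Ctsz and Ctsh mouse 9 was highest, and no library of one group reached the other.

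Cd68 measured 18.7, 19.8, 16.3 and 13.7 CPM with α-IgLON5#1 in hippocampus and 7.58, 8.50, 7.92 and 8.03 CPM with pCtrl, in the same order of mice. PBS libraries held 6.32 to 8.80 CPM, so the control groups overlapped and the α-IgLON5#1 group lay above both. The fold change over pCtrl was 2.13 (log2 1.09, SE 0.115, adjusted p = 1.0e-06). Lamp1, the LAMP-family member found on lysosomes of most cells, had 215, 234, 245 and 223 CPM with α-IgLON5#1 and 229, 215, 242 and 224 CPM with pCtrl. Its groups overlapped fully, and the log2 fold change was 0.01 (95% CI -0.0978 to 0.121, adjusted p = 0.931).

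Of the 9 called members, Ctsd, Lgmn and Ctsb changed least. Ctsd, the aspartic protease cathepsin D, had 144 to 192 CPM with α-IgLON5#1 and 117 to 130 CPM with pCtrl (1.36-fold, adjusted p = 0.00246). Of its 75-base windows 31.3% also occur in the overlapping gene Gm49369, which had 0 counts in every library, and how the counting treated reads that match both genes is not given in the sources used here. Lgmn, the asparaginyl endopeptidase that processes cathepsins, had 110 to 171 CPM against 95.3 to 112 CPM (1.34-fold, adjusted p = 0.00325), and its groups overlapped. Ctsb, cathepsin B, had 489 to 549 CPM against 444 to 467 CPM (1.13-fold, adjusted p = 0.0399). In all, 8 members had every α-IgLON5#1 library above every pCtrl library, as did 6.68% of all tested genes.

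Leaving out any 1 hippocampal library of either group, those of mice 9 and 37 included, gave 8 or 9 called members, against 2.33% to 5.22% of all genes higher. Ctsb lost its call in 13 of 18 alternatives, including the omission of either mouse 8 or mouse 9 and of each pCtrl library. With a tissue composition score as covariate 5 members were called (Cd68, Lyz2, Ctss, Ctsz and Ctsh), against 0.972% of all genes higher. Among mice 8 to 17 alone, which include all α-IgLON5#1 mice but only 2 hippocampal pCtrl libraries, 4 were called (Cd68, Ctss, Ctsz and Ctsh), against 0.272% of all genes higher. Over the 18 alternatives the log2 fold change ran from 2.25 to 2.82 for Lyz2, 1.059 to 1.497 for Ctsc, 0.37 to 0.52 for Ctsd, 0.29 to 0.51 for Lgmn and 0.14 to 0.21 for Ctsb, the members that lost their call in at least 1 of them.

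**Figure D2:**
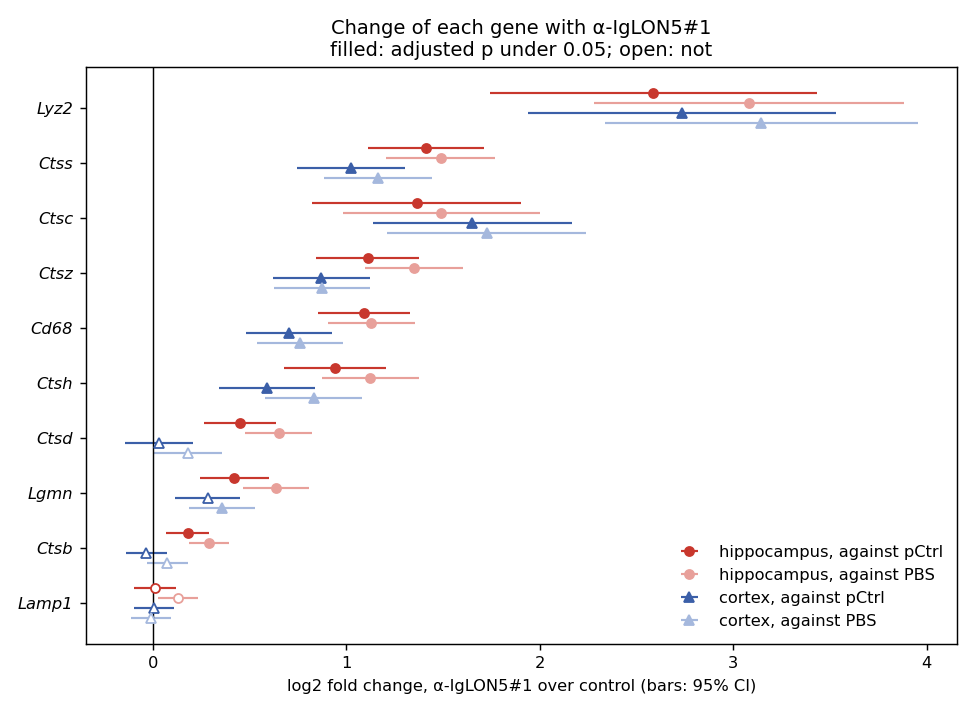
Points are log2 fold changes of α-IgLON5#1 over pCtrl or PBS in hippocampus (circles) and cortex (triangles), bars are 95% confidence intervals, and filled points have an adjusted p under 0.05. The genes run from Lyz2, at 2.58 in hippocampus against pCtrl, to Lamp1, at 0.01. Lyz2 has the largest change in all 4 comparisons, and Lamp1 is called in none of them.

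Against PBS, which shares the α-IgLON5#1 libraries and is therefore no independent comparison, the same 9 members were called in the hippocampus, where 3.81% of all genes were higher. Log2 fold changes were 3.08 for Lyz2, 1.49 for Ctss, 1.49 for Ctsc, 1.35 for Ctsz, 1.13 for Cd68, 1.12 for Ctsh, 0.65 for Ctsd, 0.64 for Lgmn and 0.29 for Ctsb. Lamp1 stood at 0.13 (95% CI 0.0244 to 0.232, adjusted p = 0.187).

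The control IgG gave no member called. In the hippocampus the median log2 fold change of pCtrl over PBS was 0.15 for the members and 0.0029 for all genes, and 0.192% of all genes were called in either direction. Without adjustment, 4 members had a p under 0.05, namely Ctsb, Ctsd, Lgmn and Lamp1, each higher with pCtrl by 0.11 to 0.22 on the log2 scale, and 14% of all genes had such a p in either direction. DESeq2 also called 0 members, although it called 2.43% of all genes. All 10 members had a positive log2 fold change, and for Ctsb, Ctsd, Ctsz and Lgmn every pCtrl library stood above every PBS library, as for 1.87% of all genes. Lgmn, for example, had 95.3 to 112 CPM with pCtrl and 86.9 to 89.4 CPM with PBS. The summed level of 8 markers of infiltrating or border macrophages was also higher in every pCtrl library (22.2 to 31.4 CPM) than in every PBS library (10.2 to 20.7 CPM), with 0 of the 8 called, and its part in these differences was not tested. With the tissue composition covariate the genes called by edgeR in this comparison went from 39 to 0. In the cortex 0% of genes and 0 members were called between pCtrl and PBS by edgeR or DESeq2, with 8.14% of genes and 2 members (Ctsb and Ctsh) under 0.05 without adjustment.

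In the cortex 6 members were higher with α-IgLON5#1 than with pCtrl, against 3.01% of all genes. These were Lyz2, Ctsc, Ctss, Ctsz, Cd68 and Ctsh, the 6 with the largest changes in the hippocampus. The median log2 fold change of the members was 0.65, against -0.0066 over all genes. With a fold change above 2, 3 members remained (Lyz2, Ctsc and Ctss), against 2.14% of all genes. Every α-IgLON5#1 library was above every pCtrl library for 7 members, including Lgmn, and for 3.68% of all genes.

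Cortical Lyz2 measured 157, 67.4, 40.1 and 65.9 CPM in α-IgLON5#1 mice 8, 9, 16 and 17 and 9.29, 11.2, 14.9, 8.67 and 17.6 CPM in pCtrl mice 10, 11, 15, 37 and 75. Mouse 8 was again highest and mouse 16 lowest, as in the hippocampus. The fold change was 6.65 (log2 2.73, SE 0.387, adjusted p = 6.3e-05).

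Ctsc showed the same order of mouse 8 above the others, with 54.4, 26.7, 16.6 and 19.6 CPM against 9.17, 9.32, 11.5, 6.88 and 9.61 CPM in pCtrl (3.14-fold, adjusted p = 0.000135). Ctss had 134, 149, 128 and 124 CPM against 62.4, 80.7, 75.0, 53.5 and 57.8 CPM (2.03-fold, adjusted p = 3.1e-05). Cd68 had 16.6, 12.9, 15.5 and 13.2 CPM against 8.70, 8.89, 9.30, 7.90 and 9.81 CPM (1.63-fold, adjusted p = 0.000156). None of these groups overlapped.

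Ctsz rose 1.83-fold (44.9 to 67.2 CPM against 25.8 to 34.1, adjusted p = 5.5e-05) and Ctsh 1.5-fold (17.4 to 19.5 CPM against 10.3 to 15.0, adjusted p = 0.00363). Lgmn had 117 to 150 CPM against 102 to 112 CPM, and its log2 fold change of 0.28 just missed the threshold (adjusted p = 0.0540). DESeq2 called it (adjusted p = 0.0285). Ctsd (0.03, 95% CI -0.143 to 0.208), Ctsb (-0.03, 95% CI -0.138 to 0.0701) and Lamp1 (0.0034, 95% CI -0.100 to 0.107) were not called in the cortex. Against PBS 7 members were called, with Lgmn (log2 0.36, adjusted p = 0.00900) besides the other 6, where 2.97% of genes were higher. Among mice 8 to 17 alone (4 α-IgLON5#1 and 3 pCtrl cortical libraries) 0 members passed, against 0.0514% of all genes higher, while the log2 fold changes of the 6 stood between 0.47 and 2.80.

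Whether the response differed between tissues was tested as an interaction, the change over pCtrl in hippocampus minus that in cortex. No member and no gene passed by edgeR (0% of genes). DESeq2 called 0 members and 17 genes, and edgeR with the mouse as a block called 0 members and 2 genes. Without adjustment 10.6% of genes had a p under 0.05, among them Ctsd (difference 0.42, 95% CI 0.161 to 0.672), Ctsb (0.21, 95% CI 0.0619 to 0.364) and Cd68 (0.39, 95% CI 0.0616 to 0.711), each larger in the hippocampus. Their adjusted p-values in this unpaired edgeR fit were 0.245, 0.280 and 0.360. With the mouse as a block in edgeR, the unadjusted p of Ctss (0.020) and Ctsh (0.039) also fell under 0.05. Their adjusted p-values there were 0.353 and 0.402, and the share of all genes under 0.05 was not counted for that fit. Lyz2 (-0.15, 95% CI -1.27 to 0.970) and Ctsc (-0.29, 95% CI -1.03 to 0.452) had the opposite sign with wide intervals. That Ctsd and Ctsb were called in one tissue and not in the other therefore does not show a tissue difference.

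**Figure D3:**
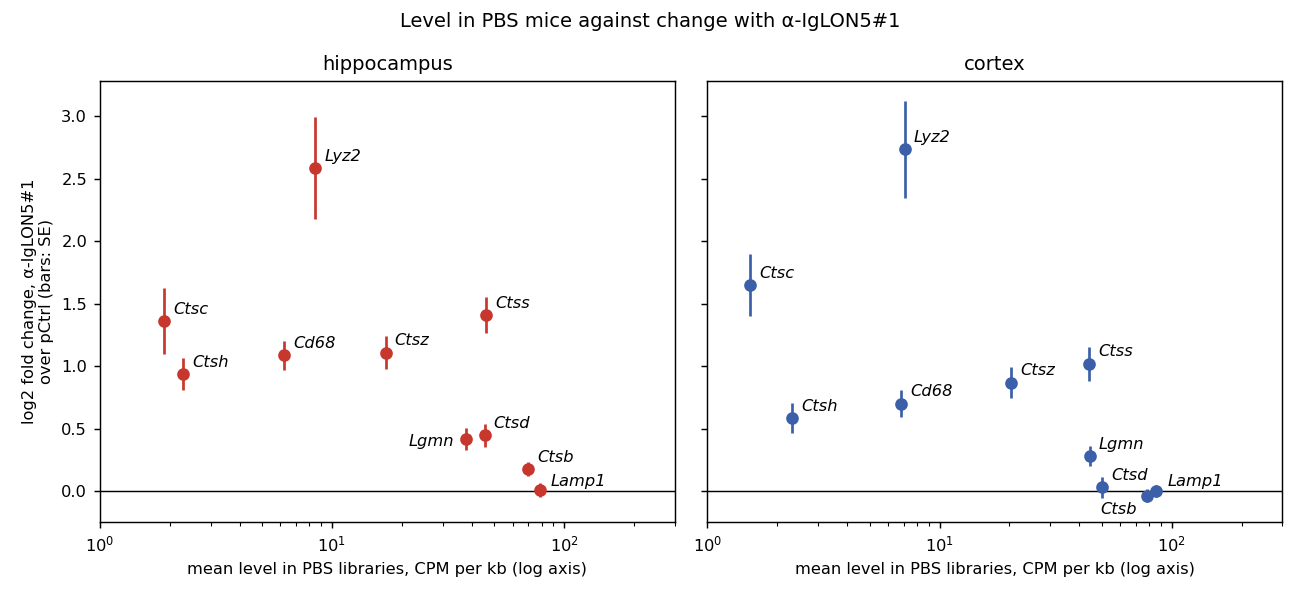
The horizontal axis is the mean level in PBS libraries (CPM per kb of exon, log axis) and the vertical axis the log2 fold change of α-IgLON5#1 over pCtrl with its SE, for hippocampus and cortex. Lamp1 and Ctsb, the members with the highest level per kb in PBS libraries, lie near 0 in both tissues. Ctss, at a level like that of Ctsd and Lgmn, lies above all of these.

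Other lysosomal and phagocytic genes were grouped by role, and their changes in the hippocampus against pCtrl were counted. Among 21 phagocytic receptors and adaptors, 13 rose and 1 fell, with a median log2 fold change of 1.13. Of all tested genes 4.23% rose and 2.78% fell in this comparison, with a median of 0.0012. With the tissue composition covariate 0.972% of all genes rose and 0.00987% fell, and the listed genes were not recounted in that fit. The largest were Fcgr4 (an activating Fc receptor for IgG, 3.82, SE 0.672), Itgax (the integrin CD11c, 2.59), Fcer1g (the signalling chain of Fc receptors, 2.0) and Itgb2 (the common β2 integrin chain, 1.77). Fcgr4 and Itgax were low in pCtrl, with means of 0.248 and 0.538 CPM against 3.75 and 3.30 CPM with α-IgLON5#1. Elmo1, an adaptor of engulfment, fell by 0.41. In the cortex 13 of the 21 rose, where 3.01% of all genes rose and 0.449% fell, and Fcgr4 (4.22), Itgax (3.10), Fcer1g (1.73) and Itgb2 (1.24) were again called.

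Most genes of the lysosome itself were not called, though hydrolases and membrane proteins rose more often than the 4.23% of all tested genes. Of 30 hydrolases 6 rose and 1 fell in the hippocampus (median 0.0933), where 2.78% of all genes fell. Those that rose included Acp5 (tartrate-resistant acid phosphatase, log2 fold change 1.87), Gusb (β-glucuronidase, 0.48) and Dnase2a (0.46). Acp5 was low, with a mean of 0.283 CPM in pCtrl and 1.05 CPM with α-IgLON5#1. Ids, iduronate 2-sulfatase, fell by 0.40. Of 14 tested membrane proteins 3 rose, which were Slc11a1 (a metal transporter of phagosomes, 1.54), Laptm5 (0.97) and Npc2 (0.38). Of 17 tested subunits of the vacuolar ATPase, the proton pump that acidifies the lysosome, 0 rose, and Atp6ap2 fell by 0.33 and Atp6v1g1 fell by 0.23. In the cortex 2 hydrolases, 3 membrane proteins and 0 ATPase subunits were called, all of them higher, where 3.01% of all genes rose.

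Among 6 other tested cathepsins, Ctsw (1.04), Ctsl (0.30) and Ctsa (0.28) rose in the hippocampus, where 4.23% of all tested genes rose. Ctsw was low, with a mean of 0.383 CPM in pCtrl and 0.814 CPM with α-IgLON5#1, and just under the threshold (adjusted p = 0.0497). Of the cystatins, which inhibit cysteine cathepsins, Cst7 (cystatin F) rose by 2.77 on the log2 scale, from a mean of 0.301 to 2.14 CPM, and Cst6 fell by 0.87. Cst7 was also higher in the cortex (3.04). Of 9 sorting receptors and activator proteins only Grn, progranulin, rose (0.76 in hippocampus and 0.44 in cortex). Of the 4 MiT/TFE factor genes Tfe3 rose by 0.19 in the hippocampus and 0 were called in the cortex.

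**Figure D4:**
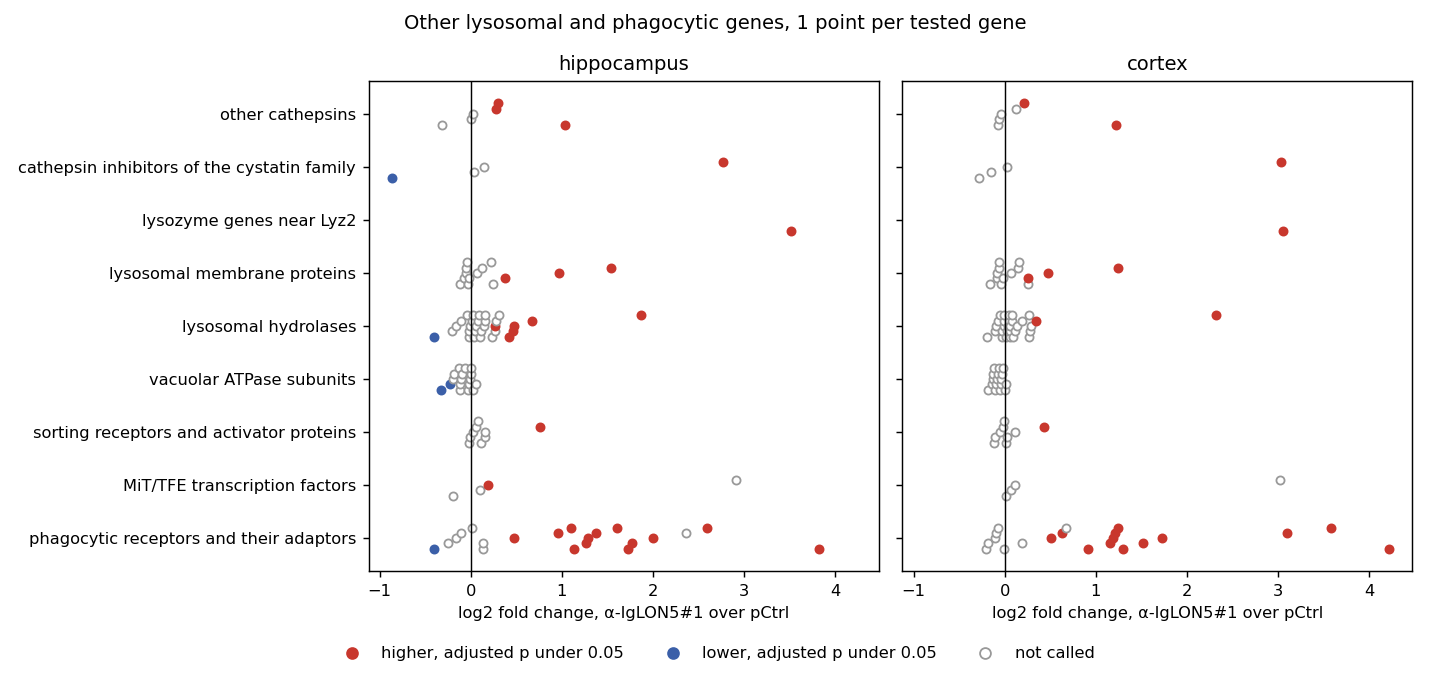
Each point is a tested gene, placed by its log2 fold change of α-IgLON5#1 over pCtrl in hippocampus (left) and cortex (right), in rows by list, with filled points for adjusted p under 0.05. Red points crowd the row of phagocytic receptors (13 in each tissue), while the hydrolase and vacuolar ATPase rows cluster around 0.

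Some markers of microglia, macrophages and astrocytes moved with the α-IgLON5#1 group as well. The summed level of 8 homeostatic microglia markers in the hippocampus was 341 to 565 CPM with α-IgLON5#1 and 281 to 317 CPM with pCtrl, without overlap, and 3 of the 8 rose (Cx3cr1, Csf1r and Tmem119), while P2ry12 averaged 30.1 and 39.1 CPM (not called). In the cortex the sums were 320 to 365 and 285 to 347 CPM, and 0 of the 8 were called. Ccr2, Ly6c2 and Ms4a7, which are expressed by monocytes or by macrophages other than microglia, averaged 4.47, 1.26 and 3.98 CPM in the α-IgLON5#1 hippocampus and 1.28, 0.0828 and 1.04 CPM in pCtrl, of which Ly6c2 and Ms4a7 were called. The other 5 of the 8 infiltrating or border macrophage markers were lower on average than in pCtrl. They were Mrc1 (11.3 and 11.9 CPM), Cd163 (2.05 and 3.66), Lyve1 (0.452 and 1.67), F13a1 (3.17 and 4.97) and Pf4 (0.679 and 1.11), and the median log2 fold change of the list was -0.34. Against PBS the median was 0.59, with 3 called higher (Ccr2, Ly6c2 and Ms4a7) and Lyve1 called lower, and Mrc1 averaged 5.81 CPM in PBS. The whole list summed to 7.72 to 47.2 CPM against 22.2 to 31.4 CPM in pCtrl, with 2 called higher and 1, Lyve1, called lower. In the cortex it summed to 12 to 61.2 CPM against 16.5 to 27.7 CPM, with 3 higher and 1 lower and a median of 0.33. Of 6 astrocyte markers 1, Gfap, an intermediate filament that rises in reactive astrocytes, was called in both tissues, with means of 1120 CPM against 452 in the hippocampus and 697 against 253 in the cortex, while the medians of the list were -0.01 and -0.06.

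Along the 4 hippocampal α-IgLON5#1 libraries, mice 8 and 17, with the most Lyz2, had the highest sums of infiltrating or border macrophage markers (47.2 and 36.9 CPM), and mouse 9, with the most Ctss, Ctsz and Cd68, had the lowest (7.72 CPM) and the highest microglia sum (565 CPM). The cortex did not have this order, since mouse 9 had the second highest Lyz2 (67.4 CPM) with the lowest macrophage sum (12 CPM) and mouse 16 the lowest Lyz2 (40.1 CPM) with a sum of 31.7 CPM. In the hippocampus B cell markers summed to 1.92 to 7.92 CPM against 0.833 to 1.2 CPM in pCtrl (4 of 5 called), plasma cell markers to 7.15 to 88.4 against 3.36 to 4.29 CPM (2 of 4 tested called) and T cell markers to 2.08 to 4.58 against 0.857 to 2.01 CPM (1 of 3 tested called). Neutrophil markers summed to 1.30 to 7.92 against 1.82 to 5.0 CPM with 0 of 5 tested called, and Ly6g was at 0 counts in 3 of 4 libraries of either group. In the cortex B cell markers summed to 1.44 to 6.52 against 0.753 to 1.2 CPM in pCtrl (2 of 5 called), plasma cell markers to 7.40 to 35.1 against 2.88 to 3.79 CPM (1 of 4 tested called) and T cell markers to 2.35 to 4.05 against 0.998 to 1.65 CPM (1 of 3 tested called). Cortical neutrophil markers summed to 0.902 to 12.9 against 1.10 to 4.21 CPM with 0 of 5 tested called, and the highest sum was that of mouse 8, which also had the most cortical Lyz2 and Ctsc. The part of these cells in the changes of the 10 members was not tested.

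**Figure D5:**
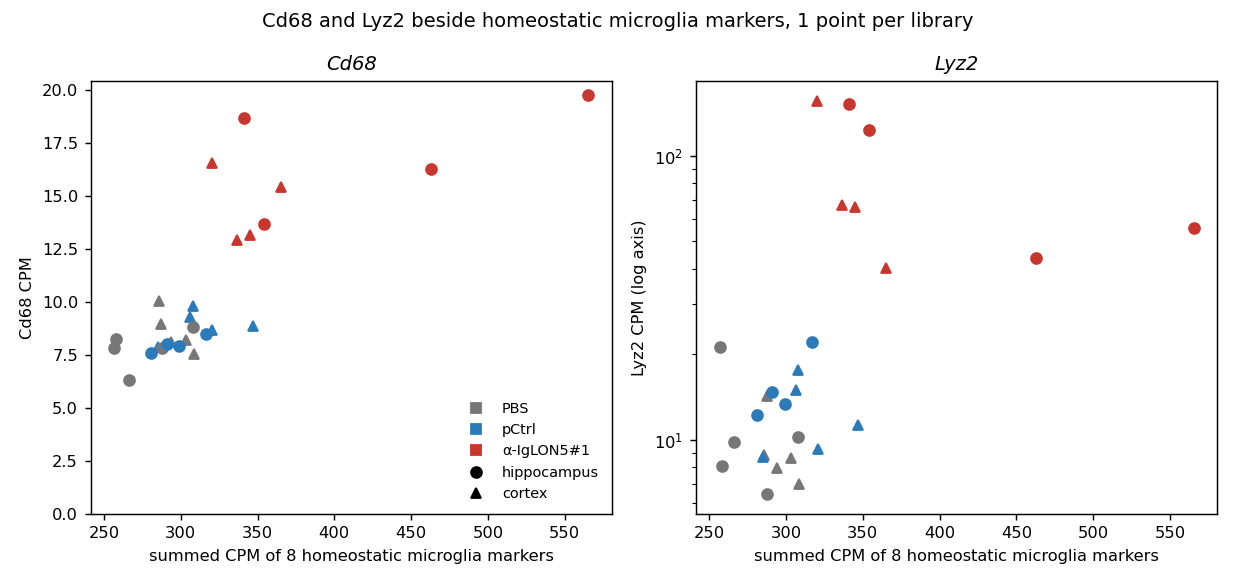
Each point is 1 library, with the summed CPM of 8 homeostatic microglia markers on the horizontal axis and Cd68 (linear axis from 0) or Lyz2 (log axis) on the vertical axis. The α-IgLON5#1 libraries lie above all controls for both genes, and of the 4 hippocampal α-IgLON5#1 libraries the 2 with the highest marker sums (463 and 565 CPM) have the lowest Lyz2 (43.7 and 55.8 CPM).

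Over the 27 libraries the 5 tested genes most like Cd68 by Pearson's correlation of log2 CPM were Ctsz (0.962), Fcgr3 (0.948), C1qb (0.948), Siglece (0.947) and P2ry6 (0.946). For Cd68 the α-IgLON5#1 libraries were separated from both control groups, which overlapped. These correlations therefore include that group difference, and correlations within groups were not computed. Among the other members, Ctss ranked 18th of the tested genes (0.932), Ctsh 74th, Lyz2 157th, Ctsc 202nd, Lgmn 232nd, Ctsd 506th, Ctsb 821st and Lamp1 2140th (0.347).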

How the data were processed

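Total RNA of cortex and hippocampus was sequenced as stranded poly(A) libraries. The authors aligned reads to GRCm38 with STAR and deposited raw counts per gene; the counting program, annotation release and strand setting are not given in the sources used here. All 27 columns were assigned to samples by their labels. Gene symbols came from GENCODE M21 (346 of 55487 rows had none). The 20271 genes that reached 10 counts in 4 or more libraries entered edgeR 4.0.16 (TMM, glmQLFit, glmQLFTest, 6 groups, no covariate) in R 4.3.3, with DESeq2 1.42.0 as an alternative. CPM per kb used the union of GENCODE exons. The composition score used 50 genes per side with a mean log2 CPM above 3 in PBS libraries (prior count 1). Same-numbered libraries of the 2 tissues were taken as 1 mouse; their deviations from group means correlated from -0.0498 to 0.443 over 13 mice, above 0.1 in 8. No 2 libraries of a group agreed within sampling noise (of 48 pairs, the lowest ratio of chi-square to its degrees of freedom was 4.82). Named genes outside the 10 members were, from each list, up to 4 with the largest change among those called in hippocampus against pCtrl, and each called in the opposite direction; one gene that this rule names is not reported here, and marker genes named singly were chosen after their values were seen. The members and lists were chosen with earlier results of these data known. Each library is a separate tissue piece, and comparisons within a tissue are between different mice. The main fit took all 27 libraries as independent and estimated the dispersion over both tissues, although 13 mice gave both. Its p-values therefore reflect the spread between libraries, not between independent mice alone.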

Additional observations from a re-analysis of the deposited data

Results flagged for a closer look

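Within a group of 4 or 5 libraries, 5 member levels lay far from the others, of 60 groups examined, and chance flags about 1 in 20. PBS mouse 38 had the highest Lyz2 in both tissues, with 21.1 CPM in the hippocampus (the others 6.43 to 10.2 CPM) and 14.2 CPM in the cortex (the others 6.98 to 8.86 CPM), and the highest cortical Ctsh of its group, 12.2 CPM (the others 9.48 to 10.3 CPM). Hippocampal Ctss was 79.8 CPM in PBS mouse 14 (the others 55.6 to 60.4 CPM) and 83.0 CPM in pCtrl mouse 15 (the others 57.9 to 61.4 CPM). All of these are high values in control libraries, and each stood below the lowest α-IgLON5#1 library of its tissue.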

How the results depend on the processing

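For each comparison the number of members called was recomputed under other tools, filters, covariates and sample choices. In the hippocampus against pCtrl, 9 became 5 with a fold change above 2, 5 with the tissue composition covariate and 4 with only mice 8 to 17. In the cortex, 6 against pCtrl became 3 with a fold change above 2 and 0 with only mice 8 to 17, which leaves fewer samples, and 7 against PBS became 3 with a fold change above 2. For the PBS tissue comparison, 3 became 0 with a fold change above 2 and ranged from 1 to 3 when 1 library was left out. The paired fit with the mouse as a block gave 4 members for that comparison and 0 for the interaction. The other counts of members stayed within 1.5 times the reported one. Of 370 recomputed member fold changes over pCtrl, 27 lost their call, 6 gained one (all Lgmn in the cortex) and 13 changed sign, all of uncalled Lamp1 or Ctsd. Hippocampal Lamp1 became -0.023 without the count filter and -0.0016 without mouse 9, and ran from -0.022 to 0.043 when 1 library was left out. Cortical Ctsd became -0.0051 with the composition covariate and -0.0058 with only mice 8 to 17, and ran from -0.039 to 0.085 when 1 library was left out. Cortical Lamp1 ran from -0.020 to 0.036 when 1 library was left out. The mouse number range as a covariate and the omission of both libraries of mouse 8 or 9 were chosen after seeing the data. Over all genes, 857 higher genes in the hippocampus against pCtrl ranged from 53 to 1057 and 610 in the cortex from 10 to 784, both lowest with only mice 8 to 17. Against PBS, 773 higher hippocampal genes ranged from 456 to 864 and 603 higher cortical genes from 295 to 703. The 563 lower genes in the hippocampus against pCtrl became 2 with the composition covariate and 3 with only mice 8 to 17. They became 29 with only the groups compared and 102 to 1033 when 1 library was left out. The 39 hippocampal genes called between pCtrl and PBS ranged from 0 to 763 (without the library of pCtrl mouse 15), and DESeq2 called 0 to 17 genes where edgeR called 0. The causes were not tested. With 4 or 5 libraries a group, the intervals given limit which changes could be seen.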
